A study of Mus musculus with 12 samples.

Results

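A group of 10 genes of the transforming growth factor beta (TGF-beta) and activin pathway was followed in mouse neutrophils: the receptor genes Acvrl1, Acvr1b, Acvr2a, Tgfbr1 and Tgfbr2, the ligand gene Tgfb1, the signal transducers Smad2 and Smad3, and the inhibitors Smad7 and Skil. They were taken by symbol from a count table of 23621 symbols, and 10 of 10 were found and passed the filter on low counts. The genes had been proposed with the differences between these groups already known, so their differences are given as descriptions, and called or not called states only where the fit over all genes placed them. RNA was sequenced from neutrophils of 8-week-old Balb/c females. The Naive group (4 libraries, numbered 1 to 4) held bone marrow neutrophils of naive mice. The HDN and LDN groups (4 libraries each, numbered 3, 4, 5 and 7) held high-density and low-density neutrophils from peripheral blood of mice bearing liver metastases, and the series title names immature LDN and liver metastasis of breast cancer. Tissue and tumour therefore changed together between Naive and the other groups, and their parts cannot be told apart. The 8 HDN and LDN columns also carried a date-like tag in the table that the 4 Naive columns lacked, which cannot be told apart from the change of tissue either.

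TGF-beta and activins are secreted dimers that bring together pairs of type II and type I receptor kinases. TGF-beta binds the type II receptor TGFBR2, which activates the type I receptor TGFBR1, and activins bind ACVR2A or ACVR2B, which activate ACVR1B. These type I receptors phosphorylate SMAD2 and SMAD3, which enter the nucleus with SMAD4. ACVRL1 (ALK1) is a type I receptor best known in endothelium, where it binds the ligands BMP9 and BMP10 and signals through SMAD1, SMAD5 and SMAD9. SMAD7 blocks the activated type I receptor, SKIL (SnoN) represses SMAD target genes in the nucleus, and both are themselves induced by the pathway. In neutrophils of tumour-bearing mice, TGF-beta is known for its influence on whether the cells favour or restrain tumour growth.

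Total counts ranged from 18113922 to 30044508 per library, and 3 reads, taken as the floor of detection, were worth 0.0953 to 0.153 CPM (reads relative to the TMM-scaled size of the library). The 9 neutrophil markers with a row summed to between 142480 and 176390 CPM in Naive, between 79549 and 129390 in HDN and between 170030 and 218910 in LDN. Most of each sum was S100a8 and S100a9, which were lowest in HDN, as were Mmp9, Itgam and Cd177. In contrast, Csf3r (3631, 8658 and 3961 CPM in Naive, HDN and LDN) and Cxcr2 (1064, 2951 and 2373 CPM) were highest in HDN. Mmp8 was lowest in Naive, and Retnlg was lowest in LDN. TMM sets each difference relative to most genes. Its factor was 1.01 to 1.28 in HDN, highest in HDN 7, 0.825 to 0.927 in LDN and 0.943 to 1.09 in Naive. In RNA from many cells, fewer cells of a type and less RNA per cell cannot be told apart. B cell markers summed to 21.7 to 55.0 CPM in Naive, 0.572 to 3.08 in HDN and 1.86 to 8.78 in LDN. T and NK cell markers, mostly Cd3d, summed to 197 to 271, 3.85 to 22.5 and 36.1 to 52.7 CPM. Epithelial and tumour markers were higher in blood (0.258 to 0.457, 11.6 to 65.1 and 11.1 to 71.3 CPM, mostly Cdh1 in blood), as were hepatocyte markers, through Trf. The part of such cells in the results was not tested.

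Acvrl1, the type I receptor ALK1, was nearly silent in Naive neutrophils and highest in LDN. Its normalised read count was 1.87, 1.77, 1.37 and 1.62 CPM in Naive 1 to 4, from 27 to 49 reads per library. In HDN 3, 4, 5 and 7 it was 31.2, 26.3, 27.5 and 18.9 CPM, and in LDN 3, 4, 5 and 7 it was 130.9, 199, 152 and 213 CPM. The 3 groups formed separate ranges with wide gaps between them, and the lowest LDN library lay above the highest HDN library. LDN exceeded HDN by 2.74 ± 0.19 (SE) on the log2 scale, or 6.68-fold. HDN exceeded Naive by 3.96 ± 0.21, or 15.5-fold, and LDN exceeded Naive by 6.70 ± 0.23, or 104-fold. The LDN and HDN libraries are taken as pairs by number, and the difference within pairs was 2.07, 2.91, 2.46 and 3.49 for numbers 3, 4, 5 and 7. The authors' deposited table gives Acvrl1 a log2 fold change of 2.67 for LDN against HDN, 3.91 for HDN against Naive and 6.58 for LDN against Naive.

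**Figure D1:**
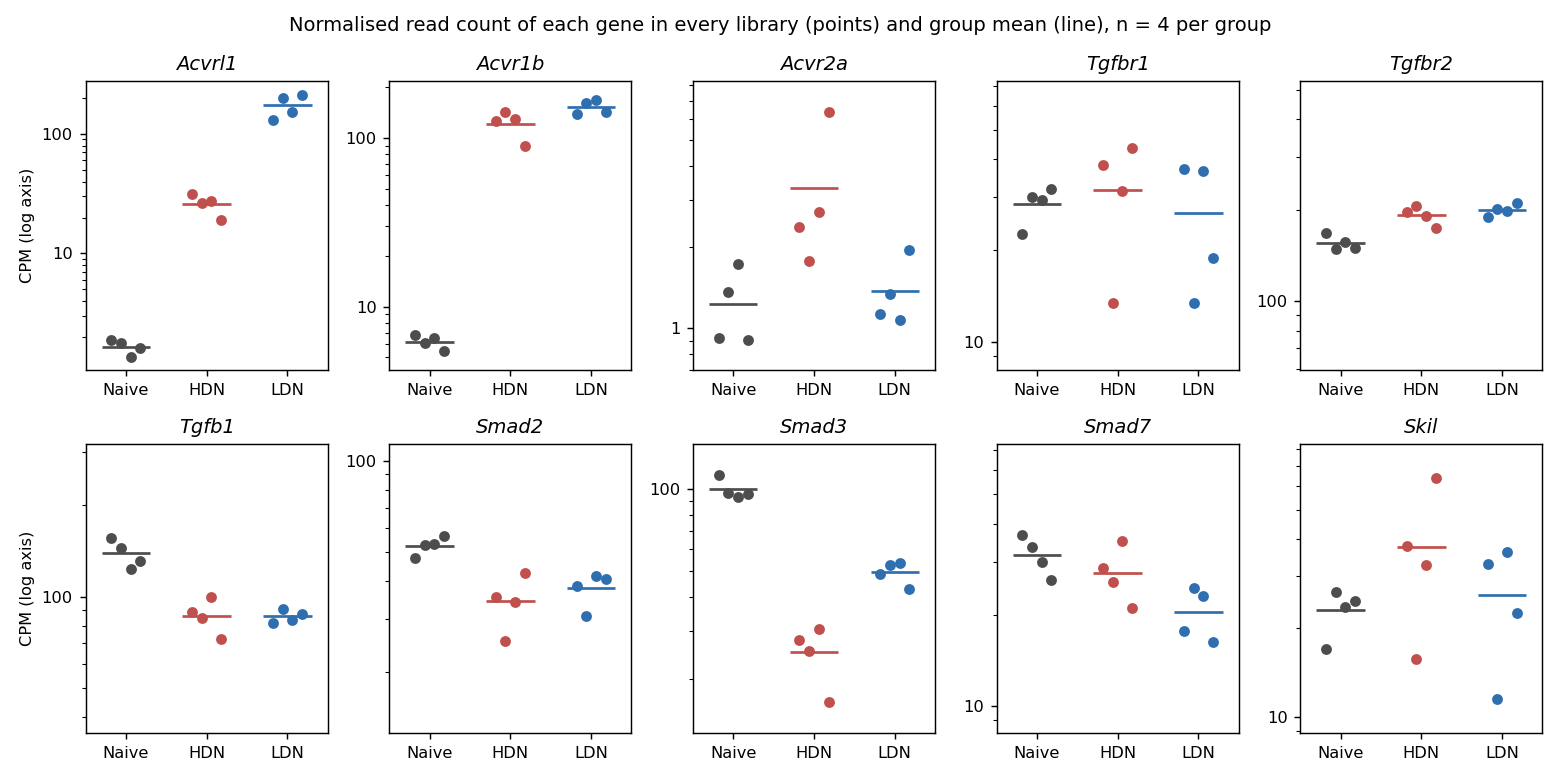
Normalised read count (CPM, log axis, with its own range in each panel) of the 10 genes in each library (points) and the mean of each group (lines), 4 libraries per group. Acvrl1 separates all 3 groups, with means of 1.66, 26.0 and 174 CPM, whereas the libraries of Tgfbr1 and Skil overlap in every group.

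Because Acvrl1 is best known in endothelium, the 12 listed endothelial markers were read beside it. Their summed level was 8.98 to 11.6 CPM in Naive, 8.62 to 14.5 in HDN and 18.6 to 26.0 in LDN. Most of it was Pecam1, a surface protein that neutrophils also carry, at 5.55, 7.77 and 20.5 CPM in Naive, HDN and LDN. Vwf, von Willebrand factor, was the next in HDN and LDN, with 79, 370 and 197 reads in Naive, HDN and LDN. Flt1 had 37, 79 and 22 reads and Kdr 10, 14 and 6, both highest in HDN. Tie1 had 198, 3 and 10 reads, Egfl7 65, 0 and 10, Stab2 40, 1 and 1, and Cdh5 7, 0 and 2, all highest in Naive, while Esam had 1, 1 and 5. Tek, Cldn5 and Emcn had 0 reads in all 12 libraries. The part of endothelial RNA in the level of Acvrl1 was not tested.

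Acvr1b, the type I activin receptor ALK4, was also low in Naive and high in both blood groups. It stood at 6.76, 6.09, 6.51 and 5.45 CPM in Naive 1 to 4. HDN 3, 4, 5 and 7 had 125.7, 142, 129.8 and 89.0 CPM, and LDN 3, 4, 5 and 7 had 139, 162, 167 and 143 CPM. Both blood groups lay far above Naive, and they overlapped each other, with HDN 4 above LDN 3. HDN exceeded Naive by 4.29 ± 0.16 (19.6-fold) and LDN exceeded Naive by 4.62 ± 0.16 (24.6-fold). LDN and HDN differed by 0.33 ± 0.14, which was not called in the fit over all genes. Within pairs the difference was 0.15, 0.19, 0.37 and 0.68, and with the pairs as a block it was 0.29 and was called. Without HDN 4 it was 0.41 and was also called.

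The promoters of Acvr1b and Smad3 are shown because these genes had the widest spread of group means, in opposite directions, among the genes with a RefSeq promoter entry. Each sequence is the 250 bases before the annotated start in GRCm38.p6, read on the gene's strand: chr15:101173822-101174071 (plus) for Acvr1b and chr9:63757995-63758244 (minus) for Smad3. Capitals mark GGGCGG or its reverse complement CCGCCC, the core of the GC box, and CACGTG, an E-box.
Acvr1b: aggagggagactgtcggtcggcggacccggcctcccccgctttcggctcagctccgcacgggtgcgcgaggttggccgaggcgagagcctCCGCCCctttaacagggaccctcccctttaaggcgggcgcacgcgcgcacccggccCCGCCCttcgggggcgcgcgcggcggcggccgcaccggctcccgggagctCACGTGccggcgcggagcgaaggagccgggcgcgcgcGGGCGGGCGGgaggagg
Smad3: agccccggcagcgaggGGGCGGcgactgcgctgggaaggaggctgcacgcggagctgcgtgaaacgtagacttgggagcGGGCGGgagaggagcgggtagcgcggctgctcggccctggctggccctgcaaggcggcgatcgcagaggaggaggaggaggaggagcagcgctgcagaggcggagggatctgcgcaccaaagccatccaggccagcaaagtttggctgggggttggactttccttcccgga
The Acvr1b window held 4 GC boxes, a pair of them overlapping, and 1 CACGTG apart from them, and the Smad3 window held 2 GC boxes. Over all 32851 promoter windows of this length, GGGCGG on either strand occurred in 32.7% and CACGTG in 6.02%. Both windows were rich in G and C, at 78.8% and 69.2%, against a median of 52.4%. The palindromic SMAD motif GTCTAGAC occurred in 0 of the 7 windows found for 6 of the 10 genes, and in 0.167% of all windows. CAGACA, which holds the short SMAD element, and GGCGCC, a GC-rich SMAD element, each occurred in a window of Tgfbr1 alone, against 17.1% and 9.59% of all windows, both strands searched. GGGCGG was in 5 of the 7 windows, those of Acvr2a, Tgfb1, Smad3 and Acvr1b and 1 of the pair for Tgfbr1. These are matches of letters in a reference genome, not in Balb/c, and they describe the windows without assigning binding.

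Acvr2a, the type II receptor for activins, was scarce throughout and highest in HDN. It measured 0.917, 1.36, 1.73 and 0.909 CPM in Naive 1 to 4. In HDN 3, 4, 5 and 7 it measured 2.37, 1.78, 2.70 and 6.37 CPM, and in LDN 3, 4, 5 and 7 it measured 1.13, 1.34, 1.07 and 1.95 CPM. HDN 7 was far above every other library, and LDN 7 lay inside the HDN range. HDN exceeded Naive by 1.43 ± 0.39 and LDN differed from HDN by -1.26 ± 0.39, and both differences were called. Without HDN 7 the LDN and HDN difference was -0.73 and was no longer called, and HDN exceeded Naive by 0.90, which was called. LDN and Naive differed by 0.16 ± 0.41. In GENCODE M21 Acvr2a overlaps Orc4 on the other strand, and Acvrl1 overlaps the antisense gene Gm16031. The library kit keeps strand, but the strand setting of the counting is not given in the sources used here.

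Tgfbr2, the type II receptor that binds TGF-beta itself, was present in all groups within a narrow range. It lay at 169, 149, 157 and 149.9 CPM in Naive 1 to 4. HDN 3, 4, 5 and 7 had 197, 207, 191 and 175 CPM, and LDN 3, 4, 5 and 7 had 190.1, 202, 198 and 212 CPM. Every blood library was above every Naive library, while the ranges of HDN and LDN overlapped. The differences were 0.30 ± 0.09 for HDN against Naive and 0.36 ± 0.09 for LDN against Naive, both called, and 0.06 ± 0.09 for LDN against HDN. When the 20 most abundant genes were left out of the library sizes, Tgfbr2 differed from Naive by 0.15 in HDN and 0.07 in LDN, and neither was called. The HDN call also ended without Naive 2, where the difference was 0.26.

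Tgfbr1, the type I partner of TGFBR2 (ALK5), showed no difference between groups beyond its spread between libraries. It was at 22.6, 30.1, 29.3 and 31.9 CPM in Naive 1 to 4, 38.2, 13.4, 31.5 and 43.5 CPM in HDN 3, 4, 5 and 7, and 37.1, 13.5, 36.7 and 18.9 CPM in LDN 3, 4, 5 and 7. HDN 4 and LDN 4 were both low, and both blood groups enclosed the whole Naive range. The differences were 0.15 ± 0.35 for HDN against Naive, -0.10 ± 0.35 for LDN against Naive and -0.25 ± 0.35 for LDN against HDN, and none was called.

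Tgfb1, the gene of the ligand TGF-beta 1, was lower in both blood groups than in Naive. It reached 156, 145, 124 and 131 CPM in Naive 1 to 4. HDN 3, 4, 5 and 7 had 88.6, 84.9, 99.4 and 72.7 CPM, and LDN 3, 4, 5 and 7 had 81.5, 91.0, 83.8 and 87.4 CPM. All 8 blood libraries were below all 4 Naive libraries, and the LDN libraries fell inside the range of HDN. Tgfb1 differed from Naive by -0.69 ± 0.12 in each blood group, a 1.61-fold difference in HDN and 1.62-fold in LDN, and LDN and HDN differed by -0.01 ± 0.12.

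Smad3, a transducer of TGF-beta and activin signals, ran opposite to Acvr1b between marrow and blood. It stood at 112, 96.8, 93.4 and 95.5 CPM in Naive 1 to 4. HDN 3, 4, 5 and 7 had 27.9, 25.4, 30.6 and 16.5 CPM, and LDN 3, 4, 5 and 7 had 48.8, 52.6, 53.4 and 42.8 CPM. The groups did not overlap: Naive was highest, LDN intermediate and HDN lowest. HDN differed from Naive by -1.99 ± 0.17 (3.97-fold lower) and LDN by -1.01 ± 0.16 (2.02-fold lower). LDN exceeded HDN by 0.98 ± 0.17 (1.97-fold), and by 0.81, 1.05, 0.80 and 1.37 within the pairs numbered 3, 4, 5 and 7.

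Smad2, the close relative of SMAD3, was lower in blood to a smaller extent. It measured 47.9, 52.6, 53.0 and 56.4 CPM in Naive 1 to 4. HDN 3, 4, 5 and 7 had 35.6, 25.5, 34.1 and 42.4 CPM, and LDN 3, 4, 5 and 7 had 38.6, 30.7, 41.5 and 40.5 CPM. No blood library reached the lowest Naive library, and HDN and LDN overlapped over most of their range. Smad2 differed from Naive by -0.61 ± 0.15 in HDN and -0.47 ± 0.15 in LDN, both called, and LDN and HDN differed by 0.14 ± 0.15. When the 20 most abundant genes were left out of the library sizes, LDN differed from Naive by -0.77.

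Of the inhibitors, Smad7 was lowest in LDN and Skil had no called difference. Smad7 was at 36.7, 33.4, 29.8 and 26.1 CPM in Naive 1 to 4, 28.6, 25.6, 35.2 and 21.0 CPM in HDN 3, 4, 5 and 7, and 17.7, 24.5, 23.1 and 16.3 CPM in LDN 3, 4, 5 and 7. Every LDN library lay below every Naive library, and HDN overlapped both. LDN differed from Naive by -0.63 ± 0.19, which was called, and HDN differed from Naive by -0.19 ± 0.18. LDN differed from HDN by -0.43 ± 0.18, not called, and the differences within pairs were -0.69, -0.06, -0.60 and -0.36. This difference was at the edge of the threshold. It was called at -0.48 with the pairs as a block, with RLE scaling and with DESeq2, at -0.57 when the 20 most abundant genes were left out of the library sizes, and at -0.49, -0.54, -0.59 and -0.56 without Naive 1, HDN 7, LDN 4 and LDN 5 in turn. In the other settings this difference was not called, and without HDN 5 it was -0.29. The authors' deposited DESeq2 table gives the LDN and HDN difference as -0.48, with an adjusted p under 0.05.

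Skil was at 17.0, 26.4, 23.6 and 24.7 CPM in Naive 1 to 4, 37.9, 15.8, 32.6 and 64.2 CPM in HDN 3, 4, 5 and 7, and 32.9, 11.5, 36.1 and 22.5 CPM in LDN 3, 4, 5 and 7. The lowest blood libraries, HDN 4 and LDN 4, were below all of Naive, and HDN 7 was the highest of all. The differences were 0.71 ± 0.38 for HDN against Naive, 0.17 ± 0.38 for LDN against Naive and -0.54 ± 0.38 for LDN against HDN. The first was called, at 0.97, without HDN 4 only.

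**Figure D2:**
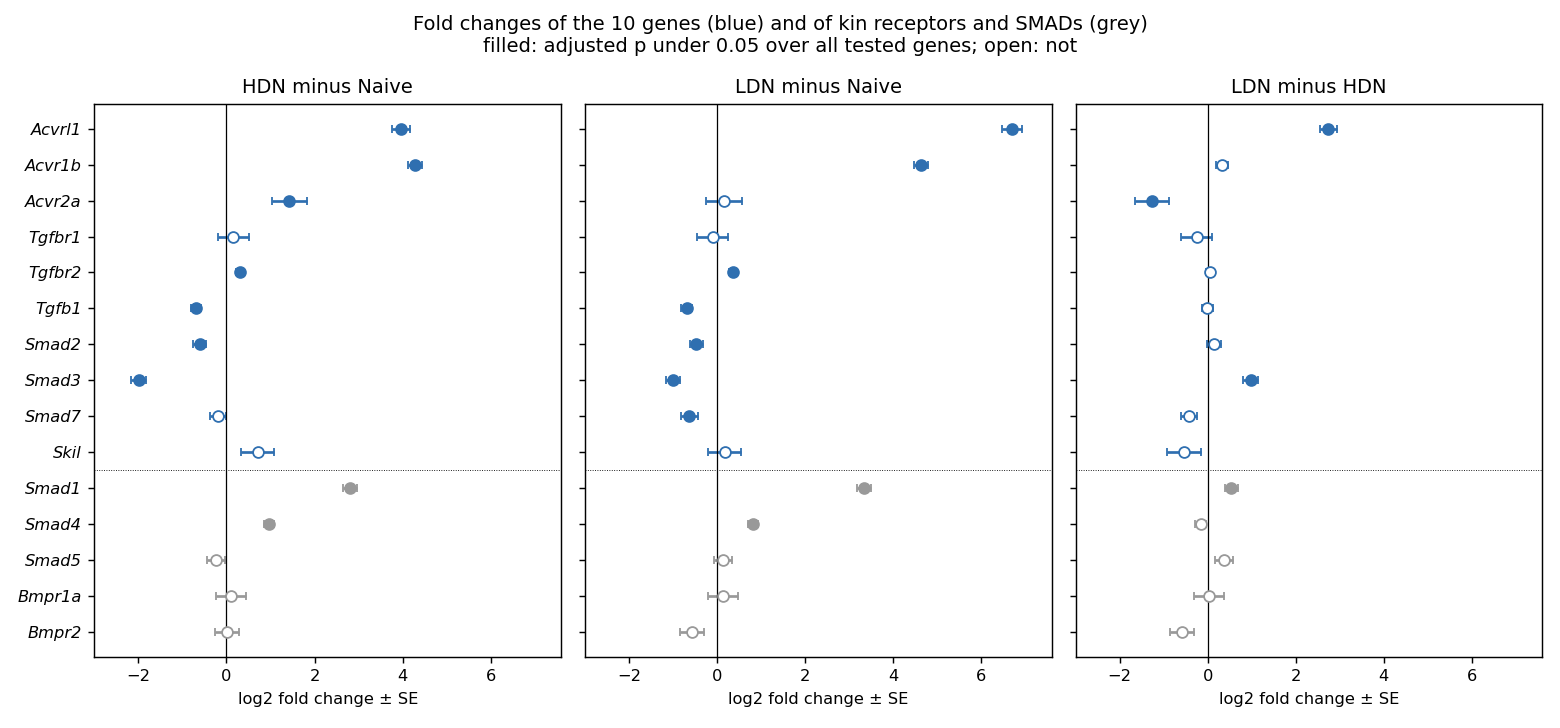
Log2 fold change ± SE in the 3 comparisons for the 10 genes (blue) and 5 related receptors and SMADs (grey), from 1 fit to 12 libraries; points are filled where the gene was called over all tested genes. Acvrl1 reaches 6.70 in LDN against Naive and Smad3 falls to -1.99 in HDN against Naive, while Tgfbr1 and Skil have unfilled points in each panel.

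In counts, 3 of the 10 genes were called between LDN and HDN, where 46.3% of the 10604 genes tested were called at an adjusted p under 0.05. Acvrl1 and Smad3 were higher in LDN, as 26.0% of all genes were called, and Acvr2a was lower, as 20.3% were, and the libraries of 2 of the 10 (Acvrl1 and Smad3) did not overlap, against 39.2% of all genes. With the pairs as a block, 5 of the 10 were called, against 57.2% of the 9983 genes tested in that fit. Between HDN and Naive 7 of the 10 were called, against 59.8% of all genes. Of these 4 were higher (Acvrl1, Acvr1b, Acvr2a and Tgfbr2, against 30.0% of all genes) and 3 lower (Tgfb1, Smad2 and Smad3, against 29.9%), and the same number did not overlap, against 53.3%. Between LDN and Naive 7 were called, against 54.2% of all genes. Of these 3 were higher (Acvrl1, Acvr1b and Tgfbr2, against 27.4%) and 4 lower (Tgfb1, Smad2, Smad3 and Smad7, against 26.8%), and 7 did not overlap, against 55.3%. Both comparisons with Naive use the same 4 Naive libraries. The median size of the log2 difference over the 10 genes was 0.382, 0.699 and 0.549 in LDN against HDN, HDN against Naive and LDN against Naive, beside 0.507, 0.678 and 0.592 over all genes tested. Since the genes were chosen on these contrasts, nothing is read from their counts.

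By the order of their group means of log2 CPM the genes fell into 5 patterns. Acvrl1, Acvr1b and Tgfbr2 had their lowest mean in Naive and their highest in LDN, the order of 16.6% of all genes, although the neighbours HDN and LDN overlapped for Acvr1b and Tgfbr2, whose difference was not called. Tgfb1, Smad2 and Smad3 were lowest in HDN and highest in Naive (23.2%), although HDN and LDN overlapped for Tgfb1 and Smad2. The HDN and LDN means of Tgfb1 were nearly equal, and in CPM that of LDN was the lower (85.9 against 86.4). Acvr2a and Skil were lowest in Naive and highest in HDN (21.1%), Tgfbr1 was lowest in LDN and highest in HDN (12.6%), and Smad7 was lowest in LDN and highest in Naive (14.1%). Skil and Tgfbr1 had no called difference in any comparison. The LDN libraries overlapped both other groups for Acvr2a, as the HDN libraries did for Smad7.

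Tgfbr1 and Skil were lowest in HDN 4 and LDN 4, where very long genes were also low as a class. In HDN 4 Tgfbr1 and Skil deviated from the mean of their group by -1.11 and -1.08 log2 units, and in LDN 4 by -0.85 and -1.03. In HDN 7 they deviated by 0.59 and 0.94. The median of 327 genes with a coding transcript over 8 kb deviated the same way, by -0.48 in HDN 4, -0.30 in LDN 4 and 0.34 in HDN 7, and by between -0.13 and 0.17 in the other 9 libraries. Tgfbr1 and Skil are not in that class: their longest transcripts have 5756 and 6717 bases, and the median of the 1764 genes of 4 to 8 kb deviated by -0.08, -0.06 and -0.01 in the same libraries. These lengths are of the longest coding transcript in GENCODE M21, and the classes were chosen after the values were seen. Tgfbr2, whose longest transcript has 8092 bases, deviated by only -0.13 to 0.11, and Smad2, with 8089 bases, was low in HDN 4 and high in HDN 7. The part of this library difference in the results for Tgfbr1, Skil, Smad2 and Acvr2a was not tested.

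**Figure D3:**
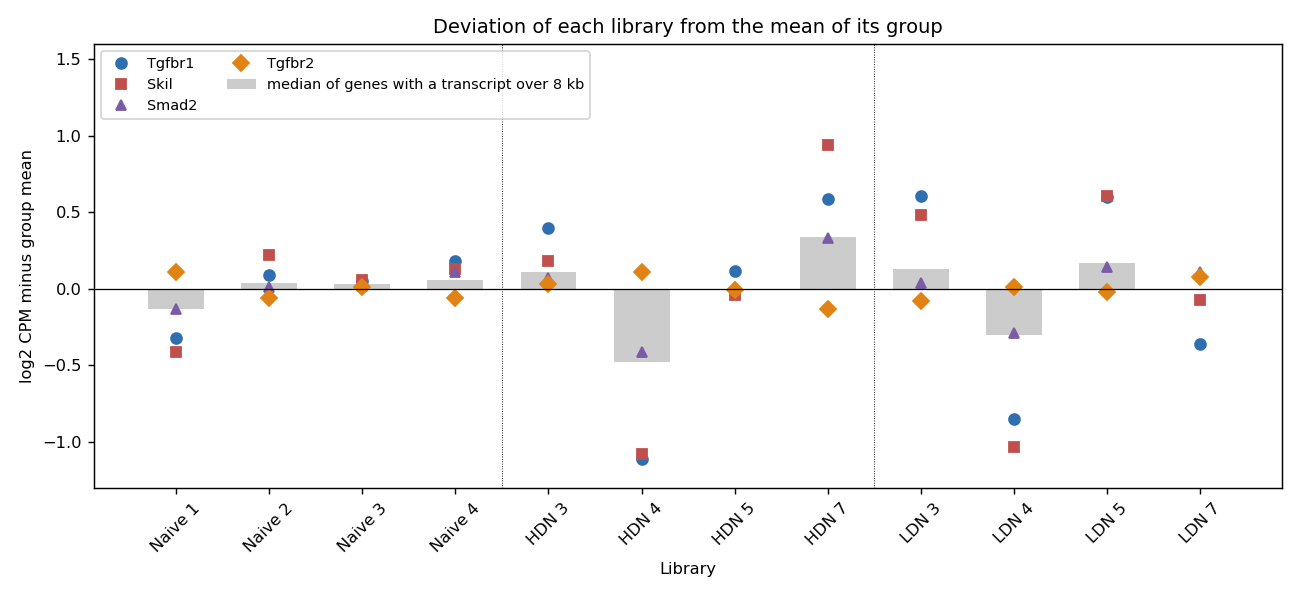
Deviation of each library from the mean of its group (log2 CPM) for Tgfbr1, Skil, Smad2 and Tgfbr2 (points), with the median over 327 genes with a transcript over 8 kb (grey bars). Tgfbr1 and Skil sit lowest in HDN 4 and LDN 4, where the grey bars are at -0.48 and -0.30.

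The rest of the pathway was read from 134 further genes in 7 lists, of which 132 had a row and 79 passed the filter on low counts. Of the 79, 35 were called between LDN and HDN (15 higher, 20 lower; 48 with the pairs as a block, 16 higher and 32 lower), 40 between HDN and Naive (28 higher, 12 lower) and 45 between LDN and Naive (28 higher, 17 lower). These are 44.3%, 50.6% and 57.0% of the list, beside 46.3%, 59.8% and 54.2% of all genes tested. The median size of the log2 difference was 0.496, 0.538 and 0.627. The adjusted p-values that follow come from the edgeR quasi-likelihood fit, Benjamini-Hochberg adjusted over the 10604 genes.

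Smad1, the transducer that ACVRL1 and the BMP receptors use, rose in both blood groups while Smad3 was lower there. Smad1 was at 5.2, 4.1, 4.2 and 4.5 CPM in Naive 1 to 4, 35.0, 36.1, 33.5 and 23.1 CPM in HDN 3, 4, 5 and 7, and 42.7, 47.5, 48.9 and 45.3 CPM in LDN 3, 4, 5 and 7. The 3 groups did not overlap and had the same order as Acvrl1. Smad1 rose by 2.81 ± 0.16 in HDN against Naive (adjusted p = 7.2e-09), by 3.34 ± 0.16 in LDN against Naive (adjusted p = 3.32e-09) and by 0.53 ± 0.15 in LDN against HDN (adjusted p = 0.00989), higher in 4 of 4 pairs. The log2 ratio of Smad1 to Smad3 CPM within a library went from -4.43 ± 0.07 (SD, n = 4) in Naive to 0.36 ± 0.17 in HDN and -0.10 ± 0.12 in LDN. This ratio can be compared across libraries only, since the genes differ in length, and it shows that their change was unequal.

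**Figure D4:**
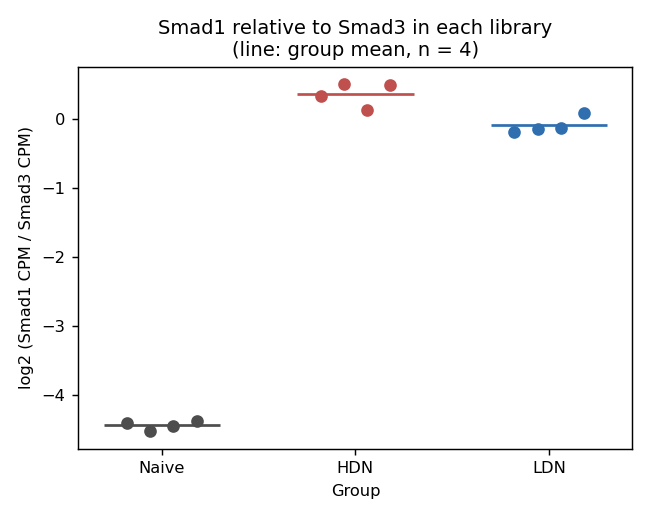
Log2 ratio of Smad1 to Smad3 CPM in each library (points) and the mean of each group (lines), 4 libraries per group. Naive libraries lie between -4.52 and -4.37, HDN between 0.13 and 0.50 and LDN between -0.19 and 0.08.

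Smad4, the partner shared by all receptor-activated SMADs, rose by 0.97 ± 0.12 in HDN (adjusted p = 1e-05) and by 0.81 ± 0.12 in LDN (adjusted p = 7.36e-05) against Naive, from 89.6 CPM to 176 and 157 CPM. LDN and HDN differed by -0.16 ± 0.12 (adjusted p = 0.275), and by -0.21 with the pairs as a block (adjusted p = 0.0464). LDN exceeded Naive by 0.51 when the 20 most abundant genes were left out of the library sizes. Smad5, which acts like SMAD1, was at 6.21, 5.26 and 6.81 CPM in Naive, HDN and LDN, with no called difference. Smad6 and Smad9 lay below the filter, with 6, 10 and 9 reads and 1, 1 and 0 reads in Naive, HDN and LDN. Of the receptor-activated SMADs with enough reads, Smad1 was thus called higher in blood, Smad2 and Smad3 were called lower, and Smad5 was not called.

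Among the other receptors, those that carry BMP signals did not pass the test. The type I receptor Bmpr1a differed by 0.10 ± 0.34 in HDN against Naive, by 0.13 ± 0.34 in LDN against Naive and by 0.03 ± 0.34 in LDN against HDN (adjusted p = 0.95). The type II receptor Bmpr2 was at 32.0, 32.2 and 21.5 CPM in Naive, HDN and LDN. LDN differed from HDN by -0.58 ± 0.27 (adjusted p = 0.0933), and the call was made with the pairs as a block (-0.60, adjusted p = 0.0317), without HDN 4 (-0.78, adjusted p = 0.0148) and without LDN 5 (-0.81, adjusted p = 0.0469). LDN differed from Naive by -0.57 ± 0.27 (adjusted p = 0.0896), and this was called at -0.88 when the 20 most abundant genes were left out of the library sizes (adjusted p = 0.0280), at -0.78 without LDN 5 (0.0456), and at -0.57 without HDN 4 (0.0399) or HDN 7 (0.0470).

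Several scarce receptors did pass. Amhr2, the receptor for anti-Mullerian hormone, was at 0.507, 2.20 and 0.182 CPM in Naive, HDN and LDN and fell in LDN against HDN (-3.54 ± 0.39, adjusted p = 1.16e-05). Bambi, a decoy receptor without a kinase, was at 1.24, 1.82 and 0.593 CPM and also fell in LDN against HDN (-1.61 ± 0.31, adjusted p = 0.000878). The co-receptor gene Rgmb rose in HDN and LDN against Naive (adjusted p = 4.69e-05 and 0.000481), from 0.0755 CPM, under the floor, to 0.797 and 0.544 CPM. Tdgf1, a co-receptor for Nodal, had 1 read in all Naive libraries, 409 in HDN and 335 in LDN. Its processed pseudogenes make that value uncertain. Eng (endoglin), a binding partner of ACVRL1, was scarce, with 26, 2 and 11 reads in Naive, HDN and LDN. Gdf2 and Bmp10, the genes of the ligands of ACVRL1, had 0 reads. Of the other type I and type II receptors, Acvr1 had 7, 2 and 19 reads, Acvr2b 8, 15 and 6, and the co-receptor Tgfbr3 55, 18 and 15.

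Of 22 other ligand genes, only Inhba and Lefty1 passed the filter on low counts. Inhba, which encodes the subunit of activin A, was at 16.9 CPM in Naive, 0.588 in HDN and 4.47 in LDN. It fell by 4.83 ± 0.21 on the log2 scale in HDN (adjusted p = 6.56e-10) and by 1.92 ± 0.17 in LDN (adjusted p = 8.99e-07) against Naive, and rose by 2.91 ± 0.20 in LDN against HDN (adjusted p = 4.16e-07). Inhba and the activin receptor gene Acvr1b therefore stood at opposite ends between Naive and HDN. The other TGF-beta genes, Tgfb2 and Tgfb3, had 1, 0 and 0 reads and 0, 11 and 7 reads in Naive, HDN and LDN.

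Genes for the storage, release and trapping of the ligands included Thbs1, with the largest difference of all lists between HDN and Naive. Thbs1 (thrombospondin 1, which releases TGF-beta from its latent form) was at 851, 0.636 and 4.98 CPM in Naive, HDN and LDN. It fell by 10.35 ± 0.35 in HDN (adjusted p = 1.41e-10) and fell by 7.41 ± 0.30 in LDN (adjusted p = 7.62e-10) against Naive on the log2 scale, and was higher by 2.94 ± 0.31 in LDN than in HDN (adjusted p = 8.11e-06). Itgb3, an integrin subunit that binds latent TGF-beta, had the same order at 112.7, 3.54 and 26.5 CPM (HDN against Naive -5.00 ± 0.32, adjusted p = 1.75e-08, and LDN against Naive -2.09 ± 0.27, adjusted p = 2.54e-05). Platelets also carry the proteins of both genes. The 12 platelet and megakaryocyte markers summed to 115 to 125 CPM in Naive, 10.6 to 12.2 in HDN and 29.0 to 34.4 in LDN, nearly all of it Itgb3 itself in Naive. Of the other markers, Itga2b, the partner of Itgb3 on platelets, had 240, 717 and 202 reads in Naive, HDN and LDN, and Gp1bb had 278, 22 and 97. Pf4 had 61, 2 and 27 reads, Ppbp 50, 3 and 45, and Gp9 55, 2 and 16. The part of platelet RNA in these results was not tested. In this list 5 of the 9 tested genes were called between LDN and HDN, 7 between HDN and Naive and 6 between LDN and Naive. Over all genes tested the shares called were 46.3%, 59.8% and 54.2%.

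Of the genes known as targets of TGF-beta, 15 were tested, and the called ones went in both directions. The list was not split by whether TGF-beta raises or lowers a gene, so these counts do not measure a response to it. Between HDN and Naive 9 rose and 2 fell, beside 30.0% and 29.9% of all genes tested. Klf10, an early TGF-beta response gene, rose by 2.09 ± 0.11 (adjusted p = 4.84e-09), from 35.2 to 150.0 CPM. Cdkn1a, the cell cycle inhibitor p21, rose by 2.48 ± 0.28 (adjusted p = 4.16e-06), from 7.88 to 44.2 CPM. Between LDN and HDN 2 rose and 6 fell, beside 26.0% and 20.3% of all genes tested. Fn1 (fibronectin) rose by 3.81 ± 0.51 (adjusted p = 5.82e-05), from 12.6 to 176 CPM, and Cdkn1a fell by 1.74 ± 0.27 on the log2 scale (adjusted p = 0.000196), to 13.2 CPM. Between LDN and Naive 8 rose and 3 fell, beside 27.4% and 26.8% of all genes tested. There Fn1 rose by 4.37 ± 0.53 (adjusted p = 1.17e-05). Snai1, a repressor gene, rose by 3.03 ± 0.25 (adjusted p = 4.86e-07), from 5.53 to 45.3 CPM. Fn1 is also a macrophage product, and the 12 monocyte and macrophage markers with a row, Fn1 among them, summed to 622 to 830 CPM in Naive, 356 to 559 in HDN and 356 to 529 in LDN.

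Of 14 other SMADs and partners tested, 8 were called between LDN and HDN, 3 higher (Smad1, Hdac1 and Runx3) and 5 lower. Over all genes tested 46.3% were called in this comparison, 26.0% higher and 20.3% lower. The corepressor gene Tgif2 fell by 1.46 ± 0.25 on the log2 scale in LDN against HDN (adjusted p = 0.000428), from 4.37 to 1.58 CPM, and Ski, the closest relative of Skil, fell by 0.62 ± 0.13 (adjusted p = 0.00182). Ski was named after its values were seen. Of 20 tested genes for receptor anchors, ubiquitin enzymes and phosphatases, 7 were called in LDN against HDN (3 higher, 4 lower), beside the same 46.3%. Ppp1r15a, a phosphatase subunit that SMAD7 recruits to the type I receptor, fell by 1.59 ± 0.45 on the log2 scale (adjusted p = 0.0116), from 60.8 to 20.2 CPM. Without LDN 7 the difference was -2.39.

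Acvrl1 and Acvr1b are neighbours on mouse chromosome 15, so the nearest protein-coding genes were listed from GENCODE M21. Fignl2, beyond Ankrd33 on the Acvrl1 side, was at 0.803, 0.480, 0.407 and 0.101 CPM in Naive 1 to 4, and at 24.5 to 49.5 CPM in HDN and 72.6 to 97.9 CPM in LDN. It rose by 6.41 ± 0.36 in HDN (adjusted p = 6.92e-09) and by 7.47 ± 0.37 in LDN (adjusted p = 4.06e-09) against Naive, and by 1.07 ± 0.26 in LDN against HDN (adjusted p = 0.00472). Ankrd33, between Fignl2 and Acvrl1, had 7 reads in all, and Grasp, beyond Acvr1b, had 25. Nr4a1, an immediate early gene further along, fell by 1.65 ± 0.35 on the log2 scale in HDN (adjusted p = 0.00114) and by 1.81 ± 0.36 in LDN (adjusted p = 0.000725) against Naive, and Atg101 was not called. Of 7 genes in a row, 3 were thus higher in blood, 1 was lower, 1 was not called and 2 were nearly silent. The list was drawn up after the values of Acvrl1 and Acvr1b were known.

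**Figure D5:**
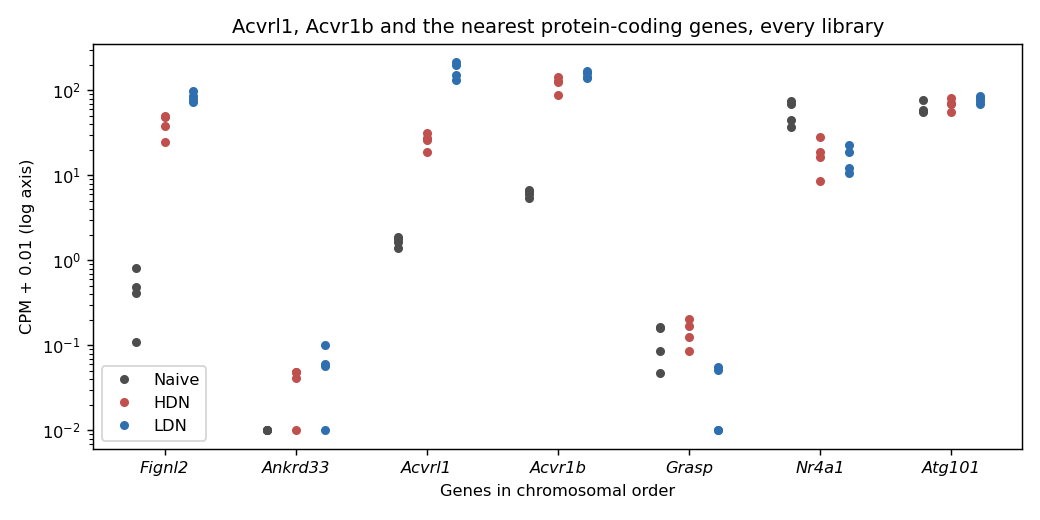
CPM plus 0.01 (log axis) in every library for 7 protein-coding genes in chromosomal order around Acvrl1 and Acvr1b. Fignl2, Acvrl1 and Acvr1b are higher in all HDN and LDN libraries than in any Naive library, and Ankrd33 and Grasp stay near the bottom of the axis.

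For the 4 genes whose group means spanned at least 1 log2 unit, the most similar profiles over the 12 libraries were found by the root mean square difference of centred log2 CPM among 8186 genes. The profile nearest to Acvrl1 was that of Cd38, an ectoenzyme that consumes NAD, at a difference of 0.45, with means of 0.855, 12.98 and 61.8 CPM in Naive, HDN and LDN. Ggt1, a glutathione-cleaving enzyme, followed at 0.64. Nearest to Acvr1b were Tspan31 at 0.30 and the adenosine receptor gene Adora3 at 0.32. Smad3 had closer matches, Dab2ip at 0.08 and Ttc7b at 0.10, and Dab2ip stood at 149.7, 42.3 and 78.2 CPM. Nearest to Acvr2a were Dcaf17 and Fam179b, both at 0.30. The 12 points share groups, libraries and depth.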

How the data were processed

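RNA was measured in 12 libraries, 4 each of Naive, HDN and LDN. Per the labels' protocols, TRIzol and columns were used for RNA and a stranded KAPA kit for poly(A) libraries. By the submitters' processing notes, CASAVA 1.8.2, Trimmomatic, STAR and DESeq2 1.16.1 were used. Build, annotation and strand setting: not given in the sources used here. The authors deposited raw counts of 23621 symbols, and 0 columns were left unmatched. Per the file headers, the authors' 3 deposited DESeq2 tables give a mean normalised signal, a log2 fold change with its standard error, a test score, and raw and adjusted p-values.

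Counts were tested with edgeR 4.0.16 (limma 3.58.1, R 4.3.3) in 1 quasi-likelihood fit to all 12 libraries, with group as the term, TMM scaling and a filter on low counts that kept 10604 of 15762 symbols with reads and 99.967% of counts. Called means a Benjamini-Hochberg adjusted p under 0.05 over all tested genes. No label says that each library is a different animal, so a p-value reflects the spread of these libraries, which may be technical. Reads carry no molecular identifiers, so the floor of 3 reads covers counting error only. The scripts were checked on simulated counts. CPM are TMM-scaled, and log2 CPM use a prior count of 2. Alternatives were RLE scaling, library sizes without the 20 most abundant genes, no filter, DESeq2 1.42.0, limma-voom, each library left out and the replicate block.

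Members and lists were chosen with earlier results of these data known. Named pathway genes are the 3 largest called differences each way in each comparison, among genes without overlap whose mean log2 CPM was 1 or more, and every receptor, co-receptor or SMAD past the filter. The choice of genes named for few reads was made after seeing their values. Ltbp3 and Ahnak were not analysed here. Promoters are from RefSeq (GRCm38.p6), with entries for 6 of the 10 genes.

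HDN and LDN share the numbers 3, 4, 5 and 7. Across genes, deviations from the group mean correlated at 0.31 to 0.76 for the 4 same-numbered pairs and at -0.61 to 0.41 for others, so the numbers were taken to pair them. Naive paired with neither (-0.13 to 0.16). The chi-square per gene between libraries of a group was 3.44 to 200.0, so none was deposited again.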

Additional observations from a re-analysis of the deposited data

Results flagged for a closer look

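Among 60 groups of 4 libraries (20 genes in 3 groups), 4 held a library far from the others. The mark was a gap over the range above 0.829, which chance gives in about 1 of 20 groups. The 20 genes were the 10 described above and the pathway genes named for the largest differences. Fn1 was at 21.6 CPM in Naive 3, against 3.06 to 4.97 CPM in the other Naive libraries. Klf10 was at 32.3 CPM in Naive 4, against 36.0 to 36.4 CPM. Ppp1r15a was at 90.7 CPM in HDN 7, against 48.3 to 52.3 CPM in the other HDN libraries. Tgif2 was at 6.0 CPM in Naive 1, against 3.30 to 3.76 CPM. None of the 10 genes described above was flagged.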

How the results depend on the processing

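With the pairs of HDN and LDN as a replicate block, 5 of the 10 genes were called between LDN and HDN (3 higher, 2 lower) in place of 3, since Acvr1b (0.29) and Smad7 (-0.48) passed, while the calls over all genes went from 4913 to 5709 (2861 higher, 2848 lower). With 1 library left out, 3 to 4 of the 10 were called between LDN and HDN, 6 to 8 between HDN and Naive and 7 to 7 between LDN and Naive. The pathway counts then ran from 31 to 41, 36 to 44 and 36 to 48, and the counts over all genes from 4425 to 5199, 5843 to 6605 and 5133 to 6284. Of 540 alternative values for the 10 genes, 522 kept their side of the threshold, 11 newly passed and 7 no longer passed. Of the 522, 500 kept their sign, 16 changed it and 6 were 0.00, none of them called. In the replicate block over all 12 libraries, Naive shares only numbers. The numbers of Naive 1 and Naive 2 occur in no other library, so only Naive 3 and Naive 4 informed its comparisons. This block ended the calls of Acvr2a (0.86) and Tgfbr2 (0.34) in HDN and of Smad7 (-0.44), Amhr2 (-1.62) and Bambi (-0.68) in LDN against Naive. With it Bmpr2 (-0.96) in LDN and Smad5 (-0.56) in HDN newly passed. Of 774 such values for the other named genes, 762 kept their side of the threshold, of which 731 kept their sign, 27 changed it and 4 were 0.00, none of them called. Library sizes without the 20 most abundant genes moved the median of all genes from 0.02 to -0.12 (LDN against HDN), 0.04 to -0.11 (HDN against Naive) and 0.01 to -0.28 (LDN against Naive). The calls higher and lower then went from 2760 and 2153 to 2245 and 2776, from 3177 and 3167 to 2488 and 3676, and from 2910 and 2840 to 1852 and 3968. Depth limits Acvr2a and the receptors near the floor.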

Other observations

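The branch of the pathway that runs through MAP kinases and small GTPases without SMADs had 13 tested genes. Of these 3 were called between LDN and HDN (1 higher, 2 lower), 7 between HDN and Naive (4 higher, 3 lower) and 8 between LDN and Naive (6 higher, 2 lower). Over all genes tested the shares called were 46.3%, 59.8% and 54.2%. Tab2, an adaptor of the kinase TAK1, was at 133, 275 and 197 CPM in Naive, HDN and LDN and rose by 1.05 ± 0.16 in HDN against Naive (adjusted p = 8.81e-05, edgeR quasi-likelihood test). Rock1, a kinase that acts on the cytoskeleton, was at 46.1, 20.05 and 12.6 CPM and fell by 1.87 ± 0.36 on the log2 scale in LDN against Naive (adjusted p = 0.00056, edgeR quasi-likelihood test). Tab2 and Rock1 were chosen after their values were seen.

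A pair of genes whose proteins trap activin was highest in LDN. Fst (follistatin) was at 0.980, 1.21 and 4.88 CPM in Naive, HDN and LDN and rose by 2.01 ± 0.26 in LDN against HDN (adjusted p = 4.92e-05, edgeR quasi-likelihood test). Fstl3, its relative, was at 7.98, 11.5 and 24.4 CPM and rose by 1.09 ± 0.20 (adjusted p = 0.000616, edgeR quasi-likelihood test). Both genes were chosen after their values were seen.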
